A study of Homo sapiens with 15 samples.

Results

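The comparison set the 4 H1975-OR libraries that carry the replicate letter a against the 8 that carry the letters b and c, so that the variation between cultures of the resistant line could be described apart from treatment. Members were chosen by the letter in the sample titles, which gave 12 of the 15 libraries of the series, and the treatment group was kept as a covariate. H1975 is an EGFR-mutant lung adenocarcinoma cell line, and H1975-OR is its osimertinib-resistant derivative, selected by prolonged exposure to osimertinib and maintained in 500 nM of that drug. H1975-OR cells received vehicle in libraries 2a to 2c, the active vitamin D metabolite 1,25(OH)2D3 at 100 nM in 3a to 3c, osimertinib at 500 nM in 4a to 4c, and both agents in 5a to 5c. Treatment lasted 96 h, with fresh doses at 48 and 92 h, in medium with charcoal-stripped serum. The vehicle and 1,25(OH)2D3 groups had therefore been withdrawn from osimertinib, all 4 groups share the same selected line, and the remaining 3 libraries (1a to 1c) are vehicle-treated H1975. The study took RNA from 3 separate passages, but the labels do not say what a letter stands for, so p-values measure the spread between these libraries.

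Osimertinib inhibits mutant EGFR, a receptor tyrosine kinase whose signal passes through the RAS and MAPK pathway to drive transcription of cyclin D1, the ETV factors and the feedback inhibitors of the DUSP and Sprouty families. Resistant lines can keep growing through other receptors such as MET, or after a shift in epithelial identity. In bulk RNA, fewer cells that express a gene and less RNA of it per cell cannot be told apart.

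The 12 libraries were of similar depth, with 4378030 to 6140120 estimated counts each, and the difference between the letter a libraries (4724371 to 6140120) and the others was within the spread (exact permutation test within treatments, two-sided, p = 0.247, smallest possible 0.0123). The 100 most abundant genes took 22.26% to 23.73% of the counts in letter a and 26.06% to 26.99% in letters b and c (exact permutation p = 0.0123). Mitochondrially encoded genes took 0.746% to 1.54% against 0.424% to 0.774% (exact permutation p = 0.037), with the highest share in 3a and the shares of 2a inside the range of b and c. At least 1 count was found for 14477 to 15148 genes in letter a and 14110 to 14519 in b and c (exact permutation p = 0.0247). In H1975, 1a also had a higher mitochondrial share (1.05%) than 1b (0.685%) and 1c (0.701%). It likewise had more genes with a count, at 14617 against 14342 and 14362. Its share for the 100 most abundant genes (21.45%) lay between those of 1b (22.02%) and 1c (20.71%). The median transcript length was 4356 bases for genes called higher and 3167 for genes called lower, and over 11686 genes length correlated with the letter a difference at 0.149 (Spearman), at 0.0238 without 3a and with the b minus c difference at 0.291. Whether these properties have a part in the results below was not tested. Markers of the labelled tissue were present, and the lung adenocarcinoma list summed to 3507 to 4369 CPM in letter a and 3225 to 4314 CPM in b and c. Neuroendocrine markers summed to 1.62 to 6.85 CPM over the 12 libraries, with CHGA, INSM1, CALCA and GRP at 0 in each. Of 15 leukocyte markers, CD3E, MS4A1, NKG7 and TYROBP were at 0 in all 12 libraries, and 3 were abundant enough to test, of which 0 passed. Their list summed to 24.0 to 64.9 CPM in letter a and 11.9 to 34.6 CPM in b and c, with CD14 highest in 3a, and its part in the results was not tested.

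Letter a differed broadly from letters b and c. Of 12350 genes tested with edgeR, 892 were higher and 837 lower in letter a at an adjusted p under 0.05, which is 7.22% and 6.78% of the genes, 14% in all. The difference was 2-fold or more for 278 of the higher and 196 of the lower genes, and its median size over the called genes was 0.68 on the log2 scale. In 1692 of the 1729 called genes (97.9%) the direction was the same in all 4 treatments. A single difference was fitted over these treatments, so genes of mixed direction could hardly be called, and this share is no separate support. All 4 letter a libraries lay above every b and c library for 551 genes (4.46%) and below every one for 534 (4.32%), together 8.79% of the genes tested. Of the called genes, 926 were among these.

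Library 3a lay farthest from the others, and the study left it out of its own analysis. Without 3a, 786 of 12503 genes were higher (6.29%) and 760 lower (6.08%), 12.4% in all. Both fits called 1171 genes, all in the same direction, which is 67.7% of the calls with 3a and 75.7% of those without it. The number of calls was thus similar without 3a, while 558 of the calls made with it were lost.

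**Figure D1:**
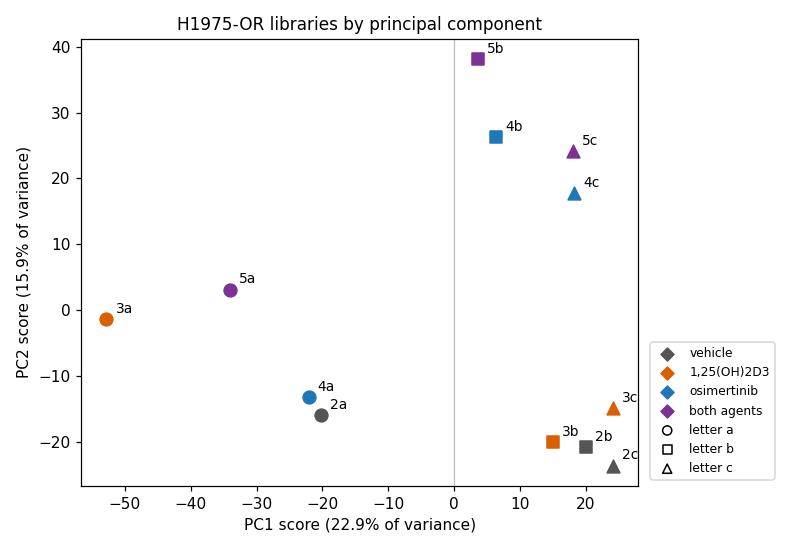
Scores of the 12 H1975-OR libraries on the first and second principal components of log2(CPM + 2), with the shape giving the letter and the colour the treatment. The letter a libraries lie between -52.79 (3a) and -20.22 on PC1, and all 8 libraries of letters b and c are above 0.

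The letters were next compared in pairs. With letter as a 3-level term, edgeR called 849 genes between a and b (6.87%), 1428 between a and c (11.6%) and 0 between b and c (0%), where 960 genes had an unadjusted p under 0.05. DESeq2 called 42 genes between b and c. Letter accounted for 29.3% of the summed variance of log2(CPM + 2) and treatment for 31.5%, with 21.5% of the total lying between a and the other letters and 7.8% between b and c. The remainder was larger than either, at 39.2%. It had 6 degrees of freedom, against 2 for letter and 3 for treatment. After the treatment means were removed, pairs of letter a libraries from different treatments correlated at 0.177 to 0.467 across genes (median 0.327, 6 pairs), pairs of c at 0.181 to 0.268 and pairs of b at -0.0168 to 0.279. Each of the 12 libraries correlated best with a library of its own letter. These correlations are across genes, which are not independent replicates. Deviations within a treatment sum to 0, which pushes libraries of the same treatment apart. A shift shared by the letter a libraries therefore also raises correlations among b and c libraries of different treatments. Pairs of b with c from different treatments correlated at -0.0225 to 0.128.

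The genes of the letter a difference recurred in treatments that had not been used to find them. Genes were called in the 9 libraries of 3 treatments, where 6.58% to 10.3% of the genes passed, and then read in the 3 libraries of the treatment left out. With vehicle left out (7.12% called), 2a lay above both 2b and 2c for 86.9% of the 412 genes called higher elsewhere and for 3.64% it lay below both. Over all genes the share above was 38.8% and the share below 38.6%. Of the 455 genes called lower, 86.4% had 2a below both. The corresponding shares were 88.1% and 89.5% in the osimertinib group (6.58% called without it) and 95.7% and 89.1% with both agents (6.66% called without them). They were lowest in the 1,25(OH)2D3 group, where 3a lay above 3b and 3c for 75.5% of 638 genes and below for 76.8% of 613 (10.3% called without this group). Libraries of one letter may come from one passage, in which case they share their source.

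**Figure D2:**
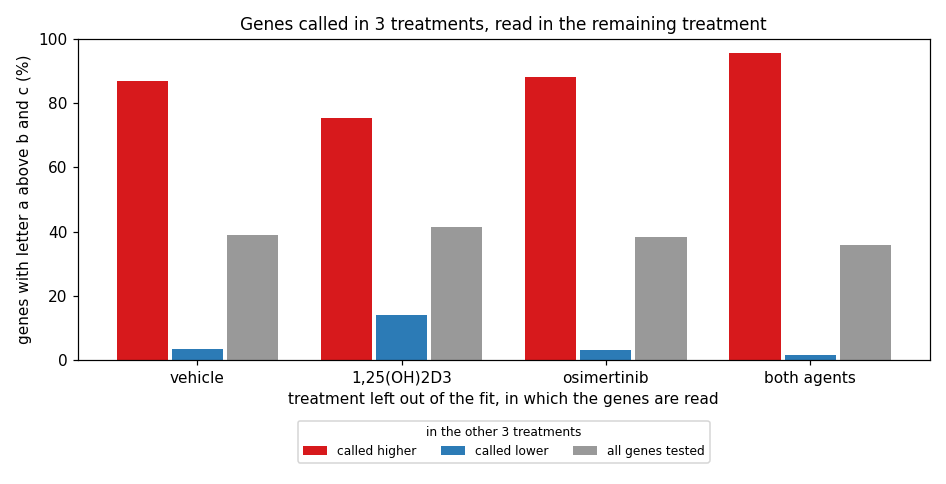
Bars give the percentage of genes with the letter a library above both the b and the c library in the treatment named on the axis, for genes called higher, called lower, or all tested in the other 3 treatments. The bars of genes called higher stand at 75.5% to 95.7%, against 35.8% to 41.5% for all genes tested.

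The largest rises included genes that were low in b and c. PLCB4, a phospholipase C that acts downstream of G protein-coupled receptors (GRCh38 chromosome 20, 9067825 to 9504593, plus strand), measured 32.5, 36.4, 59.9 and 47.7 CPM in 2a, 3a, 4a and 5a, and 0 to 8.73 CPM (median 2.59) in b and c. The groups did not overlap, and the fitted difference was 4.06 on the log2 scale (SE 0.566, adjusted p = 0.00153). PAPPA, a secreted protease that cleaves IGF-binding proteins, stood at 36.4, 56.4, 29.7 and 44.1 CPM against 0 to 9.13 (median 3.02). It was higher by 3.65 (SE 0.599, adjusted p = 0.00372), again without overlap. ALPK2, an atypical protein kinase, was measured at 123, 106, 134 and 143 CPM against 5.16 to 41.4 (log2 difference 3.01, SE 0.341, adjusted p = 0.000676). HKDC1, a hexokinase, was at 26.8, 25.4, 98.9 and 75.6 CPM, above the 3.25 to 12.1 CPM of b and c (2.87, SE 0.162, adjusted p = 2.33e-05), and its letter a levels were higher in the osimertinib groups.

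The 12 largest rises also included CNN1 and ESRP2, described with their lists, and PLXNB1, a semaphorin receptor, OR2T8, an olfactory receptor gene, PLEKHM1, which acts in lysosome and autophagosome fusion, IFT172, a component of intraflagellar transport, MAL2, a transcytosis protein of polarised epithelia, HIGD1A, a mitochondrial protein of the hypoxia response, and KIAA1462, a junctional protein, the last 7 with log2 differences of 3.01 to 3.83. PLXNB1 and HIGD1A overlapped between the groups, through 1.39 CPM in 5a and 1.71 CPM in 4a. Without 3a, IFT172 missed the threshold (adjusted p = 0.062), and HKDC1, CNTNAP1, EVI2A and MAP7D2 joined the list of the 12 largest rises.

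The most extreme fall was that of ADGRF5, an adhesion G protein-coupled receptor known from alveolar epithelium, where it restrains surfactant. It was at 0 CPM in 2a, 3a and 4a and at 0.795 CPM in 5a, whereas b and c held 5.09 to 48.5 CPM with a median of 20.5. The fitted log2 difference of -6.73 (SE 0.901, adjusted p = 0.00131) rests on these near-zero counts and depends on the prior count of the model. IVL, the cornified envelope protein involucrin, was at 2.44, 0.945, 2.85 and 0 CPM against 15.5 to 25, a difference of -3.75 (SE 0.511, adjusted p = 0.00137). PTGS2, which encodes the prostaglandin synthase COX-2, measured 9.96, 12.4, 1.33 and 6.36 CPM, all below the 19.3 to 182 CPM of b and c (-3.23, SE 0.362, adjusted p = 0.000666). The highest values were those of b and c without osimertinib, at 68.2 to 182 CPM.

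COL3A1, a fibrillar collagen, stood at 17.1, 29.1, 12.5 and 19.3 CPM in letter a and at 53 to 158 CPM in b and c (-2.35, SE 0.215, adjusted p = 0.000232). GALNT3, an enzyme that starts O-glycosylation, was also lower in all 4 libraries without overlap (-2.2, adjusted p = 0.00132). MALL, a raft protein related to MAL2, moved opposite to that gene (-2.21, adjusted p = 0.000114), with 3a at 25.7 CPM inside the 20.7 to 180 CPM of b and c. CCDC102B, UCKL1, ADGRG6 and GUSB fell by 2.22 to 2.87, of which ADGRG6 did not pass without 3a (adjusted p = 0.0521). CD52 was called lower (-3.84, adjusted p = 0.0433), but it was at 34.9 CPM in 3b and 39.1 CPM in 3c, and every other library held 4.79 CPM or less, and without 3a it did not pass (adjusted p = 0.174). Without 3a, GABBR2, MMP28, ZBTB7C, IL18, SPRY4 and RGS6 were among the 12 largest falls, and IL18, at 44.1 CPM in 3a against 5.77 to 12.7 CPM in the other letter a libraries, had an adjusted p of 0.00577 without 3a and 0.0797 with it in edgeR, and passed with all 12 libraries in DESeq2 (adjusted p = 0.005308).

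**Figure D3:**
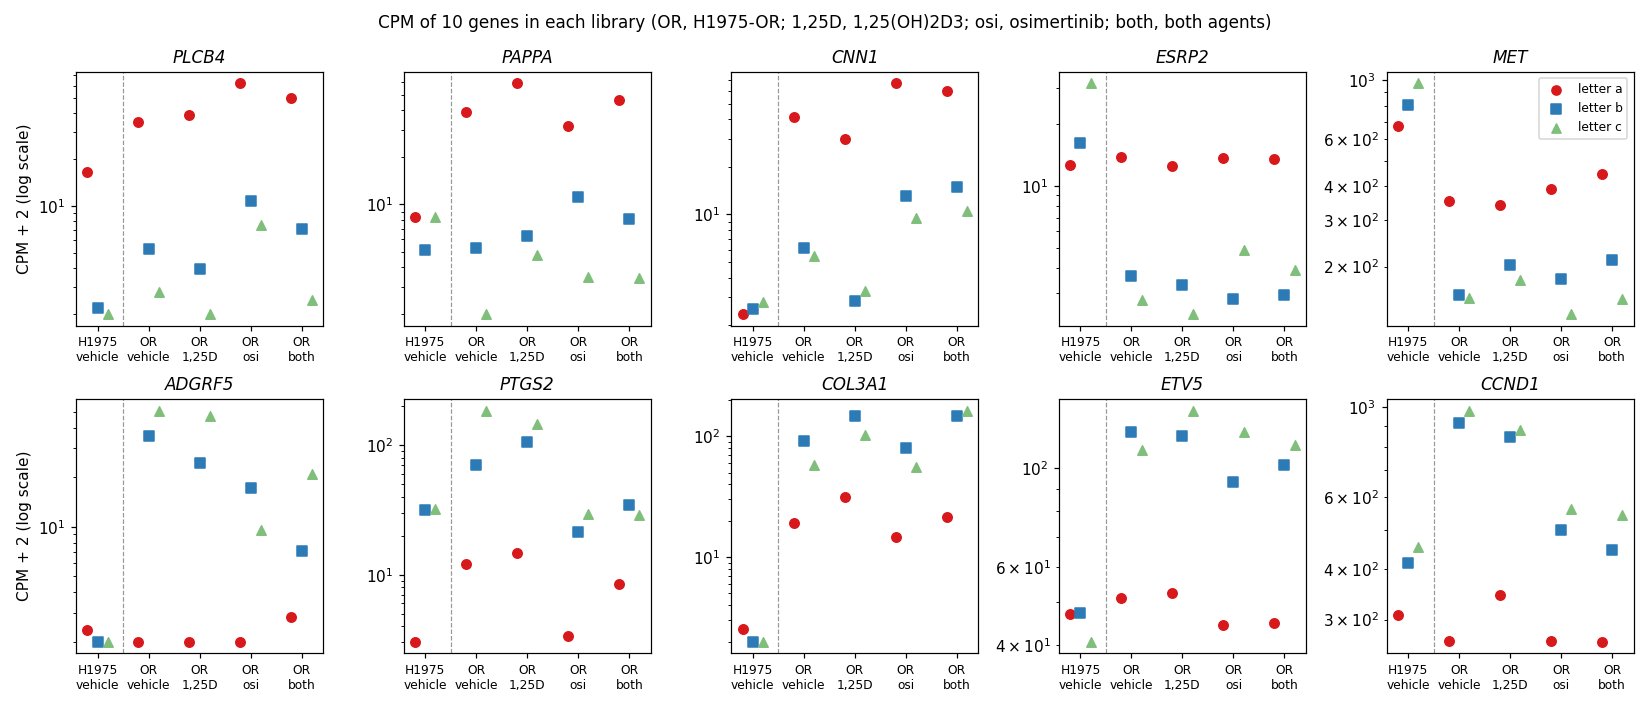
CPM + 2 on a log scale for 10 genes in each of the 15 libraries, with red circles for letter a, blue squares for b and green triangles for c, and H1975 left of the dashed line. In H1975-OR the red circles stand apart from the other letters in every treatment, as for ETV5 at 42.4 to 49.8 CPM against 90.3 to 132 CPM.

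Of 23 tested members of the immediate early and MAPK output list, 10 fell, 1 rose and 12 did not pass, and the median of all 23 was -0.34 against 0.01 over all genes. Of all genes tested 7.22% were higher and 6.78% lower, the shares to set beside the list counts here and below. ETV5, an ETS factor induced by ERK, was at 48.6, 49.8, 42.4 and 42.5 CPM in letter a and 90.3 to 132 CPM (median 113) in b and c, a difference of -1.28 (SE 0.0988, adjusted p = 8.22e-05). CCND1, which encodes cyclin D1, was at 262, 340, 263 and 261 CPM against 437 to 971 (-1.25, SE 0.145, adjusted p = 0.000792). Within treatments the difference was -1.83 in vehicle, -1.32 in 1,25(OH)2D3, -0.99 in osimertinib and -0.88 with both agents, and the b and c libraries were at 838 to 971 CPM without osimertinib and at 437 to 556 CPM with it. The feedback inhibitors SPRY4 (-1.94, adjusted p = 0.0086) and DUSP1 (-0.73, adjusted p = 0.00435) fell too. MYC, the member that rose, was picked out after its value was seen and did not pass without 3a, where 11 members fell and 0 rose.

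Receptors and ligands moved in a mixed way. Of 16 tested genes on the list of receptors that can bypass EGFR inhibition, with their ligands and IGFBP3, 4 were higher and 0 lower (median 0.48). Without 3a, 2 were higher and 1 was lower (median 0.13). MET, the hepatocyte growth factor receptor, was at 348, 336, 388 and 438 CPM in letter a, above the 129 to 208 CPM (median 164) of b and c, with a log2 difference of 1.18 (SE 0.121, adjusted p = 0.000429). IGFBP3 (1.13, adjusted p = 0.00185), which binds insulin-like growth factors, GAS6 (1.39, adjusted p = 0.0206), the AXL ligand, and KIT (1.39, adjusted p = 0.0499) also rose, but GAS6 and KIT did not pass without 3a (adjusted p = 0.064 and 0.0826). In the EGFR family, the ligand HBEGF was lower, with 84.1 to 129 CPM in letter a against 159 to 304 CPM (-1.05, adjusted p = 0.00345), and NRG1, a ligand of ERBB3 and ERBB4, was higher (0.99, adjusted p = 0.00618). EGFR itself was at 103, 238, 107 and 178 CPM against 110 to 218, and gave -0.17 (SE 0.168, adjusted p = 0.555).

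Of 93 tested genes of S and G2/M phase, 25 rose, 2 fell and 66 did not pass, with a median of 0.47, and without 3a 20 rose and 0 fell. The 2 that fell, UBR7 and G2E3, were looked up after the counts were seen. RRM2, a subunit of ribonucleotide reductase, was at 54.9 to 62.4 CPM in letter a against 16.4 to 41 CPM (1.15, SE 0.155, adjusted p = 0.00131). ANLN (0.87, adjusted p = 0.000878) and ECT2 (0.84, adjusted p = 0.00187) act in cytokinesis, and both overlapped between the groups, as ANLN in 3a (239 CPM) lay below 4b (319.7 CPM). Among 55 replication-dependent histone genes, 18 rose, 1 fell and 36 did not pass. The summed level of the S and G2/M list was 6309, 5092, 7063 and 6145 CPM in 2a to 5a and 3671 to 5975 CPM in b and c, so that the ranges overlapped through 3a and the osimertinib libraries. In H1975 it was 11632 to 12513 CPM.

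The opposite held for messenger RNAs of cytosolic ribosomal proteins, of which 0 rose and 31 fell among 78 tested (median -0.35). Over all genes tested 7.22% were higher and 6.78% lower. All 4 letter a libraries lay below every b and c library for 35 of the 78, and for 534 of all 12350 genes tested (4.32%). Their sum was 83205, 66572, 82335 and 84454 CPM in letter a and 96725 to 104760 CPM in b and c, with 3a the lowest. RPL28 was at 553, 665, 730 and 749 CPM in 2a to 5a, below every b and c library (-0.82, SE 0.135, adjusted p = 0.00371). Without 3a, 30 fell and 1 rose. These genes are among the most abundant in the libraries, and their lower sum moved with the lower share of the 100 most abundant genes, whose part was not tested. Mitochondrially encoded messenger RNAs had a median of 0.79 with 2 of 13 called, and 0 were called without 3a.

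**Figure D4:**
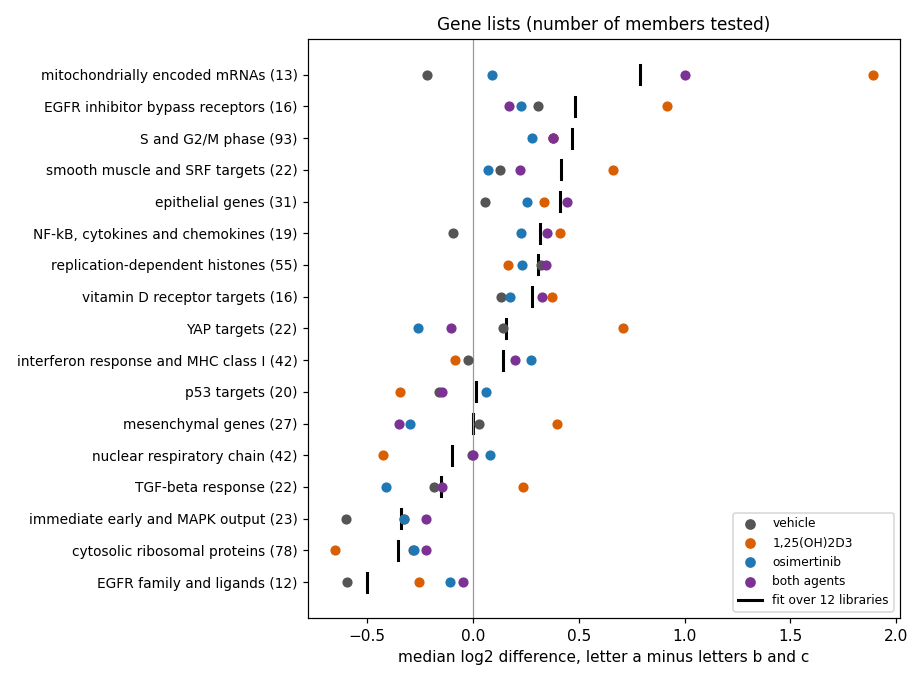
Median log2 difference of letter a from letters b and c for 17 gene lists, with points for each treatment on the log2(CPM + 2) scale and bars for the fit over 12 libraries. Ribosomal protein and MAPK output lists are below 0 in all 4 treatments, S and G2/M genes lie above 0 in all 4, and the mitochondrial list ranges from -0.22 in vehicle to 1.89 in 1,25(OH)2D3.

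Of 22 smooth muscle and SRF target genes, 8 were higher, 1 was lower and 13 did not pass (median 0.41). CNN1, which encodes the actin-binding calponin (chromosome 19, 11538767 to 11550323, plus strand), was at 38.8, 27.4, 65 and 57.3 CPM in letter a and 0.852 to 12.7 CPM in b and c (3.24, SE 0.287, adjusted p = 0.000201). MYH9, the non-muscle myosin heavy chain, was at 1704, 3106, 1857 and 1778 CPM against 956 to 1135 (1.00, SE 0.125, adjusted p = 0.000948), and FILIP1L rose by 1.29 (adjusted p = 0.000181). FHL1, a LIM-domain protein of muscle, was the member that fell (-0.73, adjusted p = 0.000948). The list median was 0.66 in the 1,25(OH)2D3 group and 0.07 to 0.22 in the other treatments.

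Epithelial genes included some of the clearest rises, with 6 higher and 2 lower among 31 tested (median 0.41). The 2 lower genes were the integrin ITGA6 and the cadherin CDH3, looked up after the counts were seen. Without 3a, 7 epithelial genes were higher and 3 lower (median 0.34). CLDN1, a tight junction claudin, was at 96.2, 69, 62.2 and 59.6 CPM against 7.9 to 26.6 CPM (2.32, SE 0.163, adjusted p = 4.76e-05). ESRP2, a splicing regulator of epithelial cells, was at 11.8, 10.4, 11.6 and 11.3 CPM against 0.368 to 2.83 (3.14, adjusted p = 0.00105). Mesenchymal genes were evenly divided with all 12 libraries, with 5 higher and 5 lower among 27 (median 0.0009). Without 3a, 5 were higher and 8 lower (median -0.30). SPARC fell by 0.94 and COL6A2 by 0.94 together with COL3A1, whereas CNN1 rose. COL1A2, another fibrillar collagen, was called higher in letter a, so collagen genes did not move together. It was at 2.25, 9.08, 1.71 and 1 CPM in 2a to 5a, overlapping the 0 to 4.08 CPM of b and c. It missed the threshold without 2a, 4a or 5a. The fibroblast marker list summed to 57.0 to 644 CPM in letter a and 87.9 to 316 CPM in b and c, with 1 higher and 1 lower gene of 6 tested. The highest sum was that of 3a. In 2a, 4a and 5a the sum lay below both the b and the c library of the same treatment. The list median was 0.59 with 3a and -0.08 without it. The part of such cells or such a state in these differences was not tested. NKX2-1, the lineage factor of lung adenocarcinoma, was at 31.7, 35.1, 33.1 and 34 CPM in letter a, all below the 55 to 97.9 CPM of b and c (-1.21, SE 0.133, adjusted p = 0.000611).

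Lists of secreted factors and immune genes also held called genes, where 7.22% of all genes tested were higher and 6.78% lower. Of 22 TGF-beta response genes, 1 rose and 4 fell. LIF, an IL-6 family cytokine, was at 38.4, 43.1, 44.3 and 42.7 CPM against 6.7 to 11.7 CPM (2.2, SE 0.144, adjusted p = 4.09e-05), and BIRC3, an inhibitor of apoptosis induced by NF-kB, rose by 2.14 (adjusted p = 0.000404), while PTGS2 of the same list fell. Of 42 interferon response and MHC class I genes, 9 were higher and 5 lower. HLA-B was at 1156 to 1583 CPM against 469 to 946 (0.96, adjusted p = 0.00677) and HLA-F gave 0.80 (adjusted p = 0.00877), whereas the antiviral genes OAS1 (-1.57, adjusted p = 0.00131) and ISG15 (-0.53, adjusted p = 0.0056) were lower. Among hypoxia response and glycolysis genes 4 of 34 rose and 3 fell, not far from the shares over all genes. EGLN3 was at 24.9 to 29.9 CPM against 2.1 to 7.76 (2.46, adjusted p = 0.000897). For p53 targets 0 rose and 3 fell among 20 (CCNG1, TIGAR and FAS), but without 3a 1 rose and 1 fell, and for YAP targets 4 rose and 1 fell among 22. Without 3a, 3 YAP targets rose and 2 fell, and their median was -0.04 against 0.16 with 3a.

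Genes that the study used as readouts were compared in the same fit. CYP24A1, the vitamin D-induced 24-hydroxylase, was at 8.54 CPM in 2a, 1012 in 3a, 9.13 in 4a and 1056 in 5a, within the 3.27 to 1458 CPM of b and c, and its letter difference was 0.43 (SE 0.24, adjusted p = 0.272). CDH1, which encodes E-cadherin, was at 9.35, 105, 6.66 and 67.4 CPM. Its difference within treatments was 0.57, -0.27, 0.65 and 0.68 in vehicle, 1,25(OH)2D3, osimertinib and both agents, so that 3a went the other way. It gave 0.46 (SE 0.217, adjusted p = 0.193) with 3a and 0.75 (SE 0.193, adjusted p = 0.0352) without it. VDR gave 0.29 (SE 0.146, adjusted p = 0.228), with 3a the highest library at 52 CPM.

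Whether the letter difference changed with osimertinib was tested by an interaction term. LAMB3, a laminin chain, was the 1 gene called by edgeR (0.0081%). It measured 77.7 CPM in 2a and 218 in 3a, below the 106 to 107 and 295 to 296 CPM of their b and c counterparts, and 79.1 in 4a and 174 in 5a, above 26.5 to 35.5 and 59.1 to 70.3 CPM. The change in the difference was 1.83 (SE 0.184, adjusted p = 0.0297). Without 3a it was 1.84 and did not pass (adjusted p = 0.173), and 0 genes were then called, with 1009 at an unadjusted p under 0.05. With all 12 libraries 1326 genes had such a p, and DESeq2 called 194.

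Letter was then kept in the fit of the treatment effects. With it, 47 genes differed between 1,25(OH)2D3 and vehicle (0.381%), 8 between osimertinib and vehicle (0.0648%), and 129 between both agents and vehicle (1.04%). Without 3a the counts were 48, 35 and 461. With all 12 libraries, all 18 genes called for 1,25(OH)2D3 and all 25 called for both agents without the letter term were among these. For osimertinib, 5 of the 6 genes called without the letter term were also called with it. The 3 contrasts share the vehicle libraries.

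The levels of the named genes in the parental line were set beside those of H1975-OR, with no test. ETV5 in H1975 was at 45, 45.3 and 38.7 CPM, at the level of letter a, and LIF at 39.9, 47.2 and 56.5 CPM likewise. MET was higher still in H1975, at 670, 803 and 971 CPM, so that letter a lay between the other letters and the parental line. COL3A1 was at 0 to 0.523 CPM and ADGRF5 at 0 to 0.349 CPM in H1975, below or like letter a. CNN1, at 0.349 to 0.819 CPM, and ALPK2, at 1.02 to 4.53 CPM, were lower in H1975 than in letter a, as was BIRC3 at 3.31 to 10.2 CPM. The sum of ribosomal protein messages was 66795 to 76164 CPM in H1975, below the b and c libraries of H1975-OR. For genes called without the vehicle libraries, H1975 was higher than 2b and 2c for 80.6% of the 412 called higher in letter a. It was higher for 13.8% of the 455 called lower and for 50% of all genes tested. Both differences use b and c as reference letters, which can move them together, and the part of this was not tested.

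The letter was also read in H1975, whose libraries had not entered the calls. Library 1a lay above 1b and 1c for 37.7% of the 892 genes called higher in H1975-OR and below both for 33%. For the 837 genes called lower the shares were 34.8% and 38.5%, and over all genes they were 35.2% and 34.5%. Single named genes went both ways. PLCB4 was at 14.5 CPM in 1a against 0.183 and 0 CPM in 1b and 1c. PTGS2 was at 1.05 against 29.7 and 30.1 CPM, so both had the direction seen in H1975-OR. CLDN1 (5.92 against 18.3 and 39.9 CPM) and MAL2 (70.7 against 217 and 331 CPM) had the opposite direction. These genes were picked after their values were seen.

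The share of called genes differed between chromosomes. On chromosome 22, 47 genes were higher and 4 lower of 281 tested (16.7% and 1.42%), with a median of 0.31, and on chromosome 3 the counts were 91 and 11 of 666 (median 0.20). Chromosome 17 held 100 higher and 27 lower of 712 (median 0.18, and 0.11 without 3a), and chromosome 10 held 53 and 16 of 458 (median 0.18). Chromosomes 5 (21 higher and 68 lower of 570), 14 (12 and 48 of 393) and 19 (36 and 98 of 873) leaned the other way. So did chromosome 7 (27 and 51 of 532), which had the lowest median (-0.13). Other chromosomes leaned too, with more genes higher on 9 and 16 and more lower on 1, 12, 20 and X. Between b and c, chromosome medians stayed between -0.07 and 0.06.

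In windows of 25 neighbouring tested genes, 8 of 459 had a median above 0.4 and 7 had a median under -0.4, while for b minus c 0 windows passed either value and the medians ran from -0.25 to 0.331. Of the 8 raised windows, 5 were adjoining and covered chromosome 17 from 50.4 to 75.3 Mb, with medians of 0.41 to 0.60, and 3 were on chromosome 22. Among the 7 lowered windows, 3 lay on chromosome 19 between 51.1 and 58.6 Mb and 2 on chromosome 12. The H1975 difference from 2b and 2c, which uses the same letters as reference, was 0.346 to 0.805 in the 5 windows of chromosome 17 and -0.08 to -0.11 in those of chromosome 19. It was 0.148 to 0.508 in the 3 windows of chromosome 22, and -0.637 and -0.362 in the 2 of chromosome 12. The window of chromosome 14 gave -0.348 and that of chromosome 7 gave -0.106. In all 15 windows its sign was that of the letter a difference. DNA copy number was not measured, and its part in these medians was not tested.

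**Figure D5:**
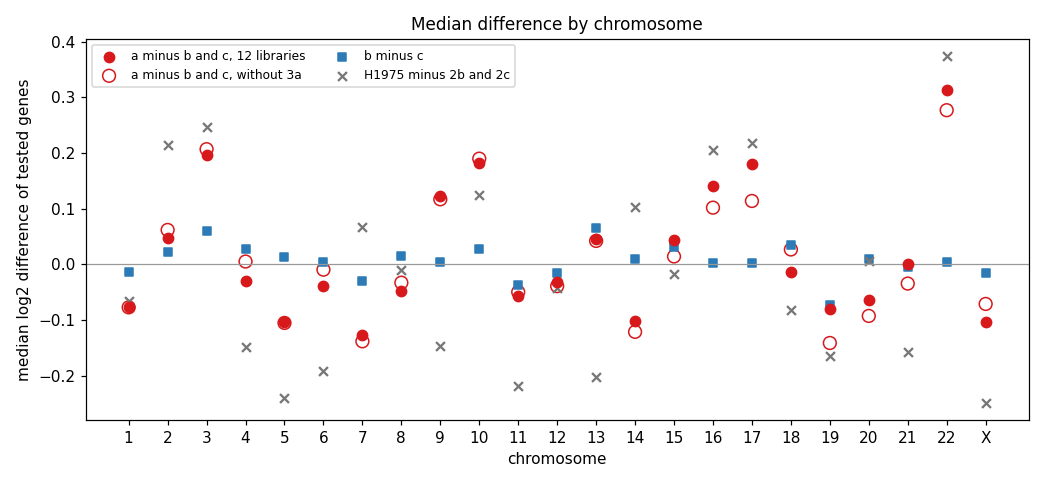
Median log2 difference of the tested genes on each chromosome, for letter a minus b and c with all 12 libraries (filled red) and without 3a (open red), for b minus c (blue squares), and for H1975 minus 2b and 2c (grey crosses). Chromosome 22 stands highest at 0.31, whereas the blue squares stay between -0.07 and 0.06. The red and grey points share b and c as their reference letters.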

How the data were processed

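RNA of vehicle-treated H1975 and of H1975-OR cells was sequenced by the authors from ribosomal RNA-depleted, stranded libraries. The deposited table holds estimated counts per gene, which the authors made with kallisto 0.43.0 and tximport. The submitters' processing notes also name CASAVA 1.8.2, STAR 2.5.2b and GRCh38. Estimated counts share reads between similar genes, so paralogs are uncertain. Counts were rounded and fitted in R 4.3.3 with edgeR 4.0.16 (TMM, filterByExpr with a minimum count of 10 and total of 15, quasi-likelihood test, Benjamini-Hochberg threshold 0.05) with treatment as a covariate. DESeq2 1.42.0 was an alternative. SE is the difference divided by the root of F. CPM are TMM-scaled, log values used a pseudocount of 2, and 3 counts (0.489 to 0.685 CPM) was the floor.

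The members and gene lists were chosen with earlier results of these data known (S and G2/M genes from Seurat 5.3.0). Genes were named as the 12 largest rises and 12 largest falls with an adjusted p under 0.05, at least 10 CPM and the same direction in all 4 treatments, with and without 3a, and the 4 smallest p-values of a list, the readouts and the 5 smallest interaction p-values. Further list members named were picked after their values were seen. Coordinates are from GENCODE 44, which matched 18324 of 19612 symbols. In simulated data of the 12-library comparison (12350 genes), 130 of 200 genes changed by 1 on the log2 scale were recovered, with 7 false calls. Without 3a (12503 genes), 98 of 200 were recovered, also with 7 false calls. Simulated counts were drawn independently for each library. They held no deviation shared by libraries of one letter other than the set changes, so the false calls do not cover such a deviation. Over all genes tested in the real data, 7.22% were higher and 6.78% lower. The remaining lists gave: cholesterol synthesis 2 higher and 0 lower of 24, fatty acid synthesis 3 and 1 of 13, ATF4 response 3 and 0 of 25, unfolded protein response 3 and 1 of 22, heat shock 1 and 0 of 19, NRF2 targets 3 and 1 of 22, metallothioneins 0 and 1 of 7, nuclear respiratory chain 0 and 3 of 42, vitamin D receptor targets 3 and 2 of 16, EGFR family 1 and 1 of 12, NF-kB list 2 and 2 of 19, lung adenocarcinoma 0 and 1 of 8, leukocyte 0 and 0 of 3, endothelial 0 and 1 of 4, squamous and basal 2 and 1 of 3 (summed 24.6 to 99.1 CPM in letter a, 26.5 to 39.6 CPM in b and c, 1 and 0 without 3a), and neuroendocrine 0 and 0 of 1. Some genes that the naming rule selected are not reported here.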

Additional observations from a re-analysis of the deposited data

Results flagged for a closer look

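For 84 named genes and 24 lists, the 4 within-treatment differences of letter a from b and c were searched for a value far from the other 3 by Dixon's ratio at its 95% critical value. It singled out 3 genes and 4 lists, and chance alone gives about 1 in 20. In the 1,25(OH)2D3 treatment, where the difference comes from 3a, RPS21 stood at -0.92 against -0.543 to -0.504, MYH9 at 1.57 against 0.761 to 0.832, and CDH1 at -0.27 against 0.574 to 0.68. The same treatment gave the outlying list medians of the nuclear respiratory chain (-0.43) and of cytosolic ribosomal proteins (-0.65). The S and G2/M list was lowest with osimertinib (0.28), close to the 0.379 to 0.381 of the rest, and fatty acid synthesis was at -0.32 in vehicle. LAMB3 is listed because its letter a difference changed with osimertinib by 1.83 (adjusted p = 0.0297, edgeR's quasi-likelihood test), which did not pass without 3a.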

How the results depend on the processing

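The 1729 genes called between letter a and letters b and c, and the 1546 without 3a, moved by less than 1.5 times under RLE scaling, DESeq2, either other filter on low counts or no treatment covariate. The direction was evenly divided throughout, and the median of all genes did not shift by over 0.1. With the replicate block (letter as 3 levels) the counts were 1768 and 1806. Fewer libraries gave fewer calls. Leaving out 1 library at a time gave 844 to 1573 genes, lowest without 5a, 4a (1067) or 2a (1139), and 508 to 1410 without 3a as well, lowest without 5a, 4a (524), 2a (989) or 4c (1004). Without the 1,25(OH)2D3 groups 291 genes remained called and without the osimertinib groups 215. Chosen after seeing the data, leaving out the vehicle group gave 867, the osimertinib group 801 and the group with both agents 810. The EGFR difference, not called, ran from -0.29 to 0.0101 as single libraries were left out, and was above 0 without 2a. LAMB3 was at -0.43 without the osimertinib groups. Without 3a and without the treatment covariate, CYP24A1 (-0.45), CDH1 (-0.69), VDR (-0.0132) and LAMB3 (-0.17) changed sign, none of them passing.

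Of 93 genes followed, 61 missed the threshold under some alternative, mostly where libraries were left out. KIT, RGS6, GUSB, HIGD1A, MT-CO1 and MT-CO2 missed it most often. The osimertinib interaction gave 0 genes without 3a and 194 with DESeq2, which also called 1399 genes between a and b and 42 between b and c. Each library correlated best with one of its own letter, although pairs of b libraries ran as low as -0.0168. The labels do not say what a letter stands for, so treatment calls are given with and without it as a block. Treatment calls without the replicate block were 18 for 1,25(OH)2D3, 6 for osimertinib and 25 for both agents, and 12, 6 and 62 without 3a, where the fits with letter gave 48, 35 and 461. The median correlation of b libraries was 0.243 for genes of at least 50 CPM, and that of c libraries was 0.33 for those genes, 0.2 with a pseudocount of 0.5 and 0.168 without 3a. The causes of these shifts, other than the number of libraries, were not tested. Genes under about 0.5 CPM lie at the floor of these libraries.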
